A study of Mus musculus with 24 samples.

Results

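The caveola genes described here are 2 caveolins (Cav1 and Cav2), 3 cavins that form the caveola coat (Ptrf, Sdpr and Prkcdbp, also called cavin 1, cavin 2 and cavin 3), and 2 membrane-shaping proteins of the same structure (Ehd2 and Pacsin2). They were 7 of the 37310 genes in each expression table. The group was selected on the EGCG result of Cav2, which was lower with epigallocatechin gallate (EGCG, the main catechin of green tea) in each fat depot and on each day, and so the comparisons of EGCG with control are given as a description, without a test. All 7 genes passed the filter on low values, and each held at least 619 reads in every library of replicates 1 and 2 and at least 305 in every library of replicate 3.

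Stromal vascular cells, the fraction of fat that contains the adipocyte precursors, came from inguinal white fat (WAT) and interscapular brown fat (BAT) of C57BL/6 mice 6 weeks old. In culture they were induced with insulin, dexamethasone and isobutylmethylxanthine for 4 days, and then kept in insulin and triiodothyronine for another 4 days. EGCG or its solvent DMSO was in the medium, and RNA was taken on day 4 or day 8, which gave 8 groups of 3 libraries: control and EGCG cells of each depot on each day. The labels give no dose of EGCG, and do not say whether the replicates came from separate cultures or animals, so p-values measure the spread between these libraries, which may be technical.

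Caveolae are small flask-shaped pits of the plasma membrane that are dense in adipocytes, endothelial cells and muscle. Caveolin 1 inserts into the inner leaflet and forms oligomers, caveolin 2 joins it in the same complex, and cavin 1 binds these from the cytosol and is needed for the pit to form. Cavin 2 and cavin 3 enter the coat through cavin 1, Ehd2 is an ATPase that sits at the neck, and Pacsin2 is a membrane-bending protein that takes part in caveola shape. In fat cells, caveolae take up much of the cell surface, and caveolin 1 binds fatty acids and associates with the insulin receptor.

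In the mouse build mm9, Cav2 (ENSMUSG00000000058.6, chr6:17231185-17239115) and Cav1 (ENSMUSG00000007655.9, chr6:17256335-17291452) are neighbours on the plus strand. The start of Cav1 lies 25150 bases downstream of the start of Cav2. Both overlap an antisense transcript, Gm15581, which had 0 FPKM in every library. Ptrf (ENSMUSG00000004044.8) lies at chr11:100818047-100832201 on the minus strand, Sdpr (ENSMUSG00000045954.6) at chr1:51345970-51359803 on the plus strand and Prkcdbp (ENSMUSG00000037060.2) at chr7:112629121-112630711 on the minus strand. Ehd2 (ENSMUSG00000074364.4, chr7:16532326-16552916) and Pacsin2 (ENSMUSG00000016664.7, chr15:83206037-83295036) are on the minus strand. The Pacsin2 locus holds a pseudogene on the same strand, Gm5417, which was given 3.88 to 21.1 FPKM in replicates 1 and 2 and 0 in replicate 3, so reads may be split between the pair and the Pacsin2 values are uncertain to that extent.

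The promoters of both caveolins and of the cavins Ptrf and Sdpr are shown as examples. Whether their letters bear on the EGCG changes was not tested. Each line holds the 250 bases before the most upstream start of transcription in the table, 5′ to 3′ on the strand of the gene, from RefSeq in build GRCm38.p6. Capitals mark matches on either strand to the TATA box (TATAAA), the CCAAT box (these letters), the GC box (GGGCGG) and the AP-1 site (TGANTCA).
Cav1 (chr6:17306085-17306334, plus strand): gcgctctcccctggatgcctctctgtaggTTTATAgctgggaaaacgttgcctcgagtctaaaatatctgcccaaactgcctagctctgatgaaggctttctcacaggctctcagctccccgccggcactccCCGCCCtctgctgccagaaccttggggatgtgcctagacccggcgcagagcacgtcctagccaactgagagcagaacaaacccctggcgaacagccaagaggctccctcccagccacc
Cav2 (chr6:17280935-17281184, plus strand): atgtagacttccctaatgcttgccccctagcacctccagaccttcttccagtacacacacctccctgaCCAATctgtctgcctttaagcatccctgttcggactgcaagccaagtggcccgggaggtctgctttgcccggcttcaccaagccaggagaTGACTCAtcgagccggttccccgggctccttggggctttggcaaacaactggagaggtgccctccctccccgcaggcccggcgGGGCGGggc
Ptrf (chr11:100970618-100970867, minus strand): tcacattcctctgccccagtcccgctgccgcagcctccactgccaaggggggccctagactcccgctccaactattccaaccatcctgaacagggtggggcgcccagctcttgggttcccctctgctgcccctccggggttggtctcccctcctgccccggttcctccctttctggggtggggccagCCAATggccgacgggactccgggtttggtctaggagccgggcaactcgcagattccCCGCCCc
Sdpr (chr1:51288876-51289125, plus strand): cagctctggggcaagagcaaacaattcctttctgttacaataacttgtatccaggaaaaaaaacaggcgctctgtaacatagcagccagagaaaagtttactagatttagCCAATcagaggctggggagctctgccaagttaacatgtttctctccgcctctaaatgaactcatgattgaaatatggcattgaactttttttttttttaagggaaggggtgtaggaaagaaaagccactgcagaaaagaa
The windows of 6 of the 7 genes were found in the table; Prkcdbp was not matched. A GC box was present in 5 of the 6, all but Sdpr, against 32.7% of all 32851 promoter windows of this length, and a CCAAT box in 5 of the 6, all but Cav1, against 33.8%. The AP-1 letters occurred once, 92 bases before the start of Cav2 (6.75% of all windows), and the TATA letters once, on the opposite strand 221 bases before the start of Cav1 (12.4%). The E-box CACGTG, which 6.02% of windows hold, was in none. No capitals overlap each other. The Sdpr window was 40.4% G and C with 2 CpG sites, while those of Cav1, Cav2 and Ptrf held 59.6%, 62.0% and 67.6% with 10, 10 and 12 CpG sites, and the median of all windows was 52.4%.

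Values are FPKM, reads scaled to gene length and to all reads on genes in the library. The length was that of the longest transcript of each gene, so levels can be compared between genes only roughly. Between 39452696 and 52893848 reads fell on genes in replicates 1 and 2, and between 16392420 and 41675643 in replicate 3, whose values stand in a table of their own. In the library of WAT day 8 EGCG replicate 3, 61.0% of reads fell on its top 5 genes, against 3.64% to 10.5% in the other libraries, which lowers every other value in it. For that library the value after median-ratio scaling (each library divided by its median ratio to the gene-wise average) is given as well. Of the 12 adipocyte markers in control libraries, Adipoq, the adipocyte hormone adiponectin, had 110.2 to 401.9 FPKM, while Lep, the hormone leptin, had 0.444 to 1.19 FPKM in the day 4 controls and 17.8 to 59.8 in the day 8 controls. Ucp1, the defining protein of brown fat, reached 6.97 FPKM at most, in BAT day 8 controls, and was at 0.42 FPKM or less in the other groups, in BAT day 4 controls too.

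Cav1 was the most abundant of the 7 genes in every control library, and it was lower in every EGCG library. In WAT on day 4, controls had 198, 169 and 189 FPKM in replicates 1, 2 and 3 and EGCG cells had 33.8, 37.7 and 32.8. On day 8, WAT controls had 179, 246 and 221 FPKM and EGCG cells had 94.5, 93.4 and 34.0, the last being 74.9 after median-ratio scaling. The lowest of all 12 control libraries was thus above the highest of all 12 EGCG libraries, which was a BAT day 8 library. In BAT, Cav1 had 228, 263 and 264 FPKM in day 4 controls against 82.0, 90.1 and 80.0 with EGCG. On day 8 it had 309, 303 and 282 FPKM in BAT controls against 110.2, 114 and 109.7 with EGCG. As means of replicates 1 and 2, EGCG cells kept 19.5% of the control level of Cav1 in WAT on day 4, 44.3% in WAT on day 8, 35.1% in BAT on day 4 and 36.7% in BAT on day 8. The log2 change was -2.32 ± 0.13 (SE, n = 2 against 2) in WAT on day 4, where it was deepest, and -1.15 ± 0.13 in WAT on day 8.

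Cav2, whose fall defined the group, was below Cav1 in every library, by a factor of 3.78 to 8.93 in FPKM. It had 22.5, 21.0 and 21.1 FPKM in WAT day 4 controls and 5.14, 5.24 and 4.76 with EGCG. In WAT on day 8 it had 36.1, 39.7 and 35.5 FPKM in controls and 12.0, 12.2 and 4.23 with EGCG, the last being 9.33 after median-ratio scaling. In BAT on day 4 it had 31.2, 38.0 and 37.4 FPKM in controls and 11.5, 12.4 and 9.76 with EGCG. The BAT day 8 groups lay farthest apart, with 78.8, 80.1 and 70.6 FPKM in controls and 16.7, 17.3 and 13.9 with EGCG. Every EGCG library was below every control library of any group. EGCG cells kept 23.9%, 32.1%, 34.5% and 21.4% of the control level in WAT day 4, WAT day 8, BAT day 4 and BAT day 8. The log2 changes were -1.88, -1.56, -1.45 and -2.16, each ± 0.08 (SE).

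**Figure D1:**
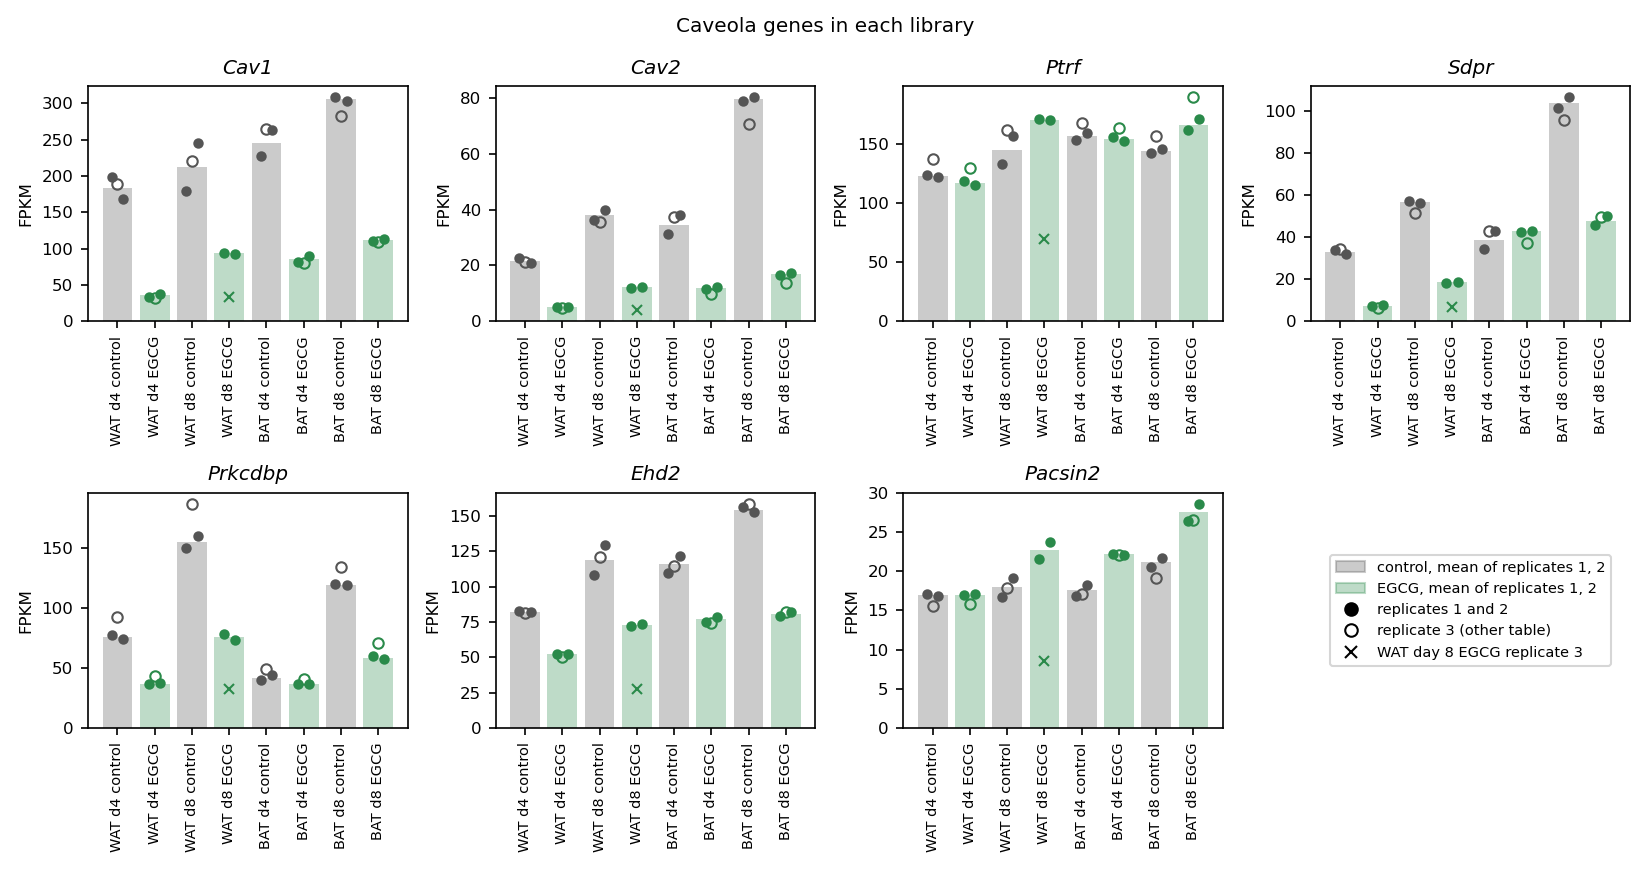
FPKM (linear axes from 0) of the 7 caveola genes in the 8 groups, with bars at the mean of replicates 1 and 2, filled points for these replicates, open points for replicate 3 and a cross for WAT day 8 EGCG replicate 3 as deposited. Cav1 and Cav2 have lower EGCG bars at each depot and day, Ptrf stays between 115 and 171 FPKM in replicates 1 and 2, and Sdpr has similar bars in the BAT day 4 groups alone.

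The 3 cavins differed from one another under EGCG. Ptrf (cavin 1), the core of the coat, had 122 to 124 FPKM in WAT day 4 controls and 115 to 119 with EGCG, and 153 to 160 in BAT day 4 controls and 152 to 156 with EGCG (replicates 1 and 2). On day 8 it had 133 and 156 FPKM in WAT controls against 171 and 170.0 with EGCG, and 142 and 146 in BAT controls against 161 and 171 with EGCG. Its log2 changes on day 8 were 0.24 ± 0.06 in WAT and 0.21 ± 0.06 in BAT, but the median of all genes moved by 0.17 in both. After median-ratio scaling these Ptrf changes were 0.03 in WAT and -0.0027 in BAT, so no direction is given. EGCG cells had 95.0% of the control Ptrf level in WAT and 98.5% in BAT on day 4, and 118% and 116% on day 8.

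Sdpr (cavin 2) followed the caveolins in WAT, with 34.1, 32.0 and 34.4 FPKM in day 4 controls against 7.23, 7.62 and 6.61 with EGCG. On day 8 the WAT controls had 57.0, 56.2 and 51.8 FPKM and the EGCG libraries 18.3, 18.9 and 6.63, the last being 14.6 after median-ratio scaling. In BAT on day 4 the groups overlapped, with 34.3, 43.1 and 43.1 FPKM in controls and 42.7, 43.2 and 37.4 with EGCG. In BAT on day 8 they were apart, at 101, 107 and 95.9 FPKM in controls and 45.8, 50.1 and 49.8 with EGCG. The EGCG level was 22.5% and 32.8% of control in WAT on days 4 and 8, and 111% and 46.1% in BAT.

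Prkcdbp (cavin 3) was at 48.6% and 48.9% of control in WAT on days 4 and 8, at 88.0% in BAT on day 4 and at 49.0% in BAT on day 8. Its libraries spanned 74.1 to 77.6 FPKM in WAT day 4 controls against 36.7 to 37.1 with EGCG, and 39.5 to 43.7 in BAT day 4 controls against 36.5 to 36.7 (replicates 1 and 2). Ehd2, the ATPase of the caveola neck, was lower with EGCG in all 4 comparisons, by a narrower margin than Cav1 and Cav2. In BAT on day 4 it was at 66.4% of control, lower than Prkcdbp at 88.0%. It had 82.0 to 82.7 FPKM in WAT day 4 controls against 52.1 to 52.6 with EGCG, and 153 to 156 in BAT day 8 controls against 78.9 to 81.9. Over the 4 comparisons its EGCG level was 52.1% to 66.4% of control, and the change was largest in BAT on day 8 (log2 change -0.93 ± 0.07). Pacsin2 was the gene with no lower EGCG level: 17.1 and 16.8 FPKM in WAT day 4 controls against 17.0 and 17.1 with EGCG, and 20.6 and 21.7 in BAT day 8 controls against 26.5 and 28.6. It stood at 100.2% of control in WAT on day 4 and at 126%, 126% and 130.2% in the other comparisons. Its log2 changes on day 8 were 0.32 ± 0.07 in WAT and 0.36 ± 0.07 in BAT, and 0.12 and 0.16 after median-ratio scaling. In replicate 3 after that scaling it was at 95.0% of control in WAT on day 4 and 105% in WAT on day 8.

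Counted over replicates 1 and 2, the EGCG and control libraries did not overlap for 6 of the 7 genes in WAT on day 4, all 6 lower with EGCG, where 29.5% of the 14095 tested genes were apart and lower and 47.9% apart and higher. In WAT on day 8 the count was 5 lower and 2 higher (25.1% and 54.3% of tested genes). In BAT it was 4 lower and 1 higher on day 4 (33.6% and 42.5%) and 5 lower and 2 higher on day 8 (32.2% and 53.9%). All of these lower genes were also lower in replicate 3 after median-ratio scaling, while of the higher ones Ptrf in WAT on day 8 was not higher there. These counts use the comparisons on which the group was chosen, and nothing is read from them.

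**Figure D2:**
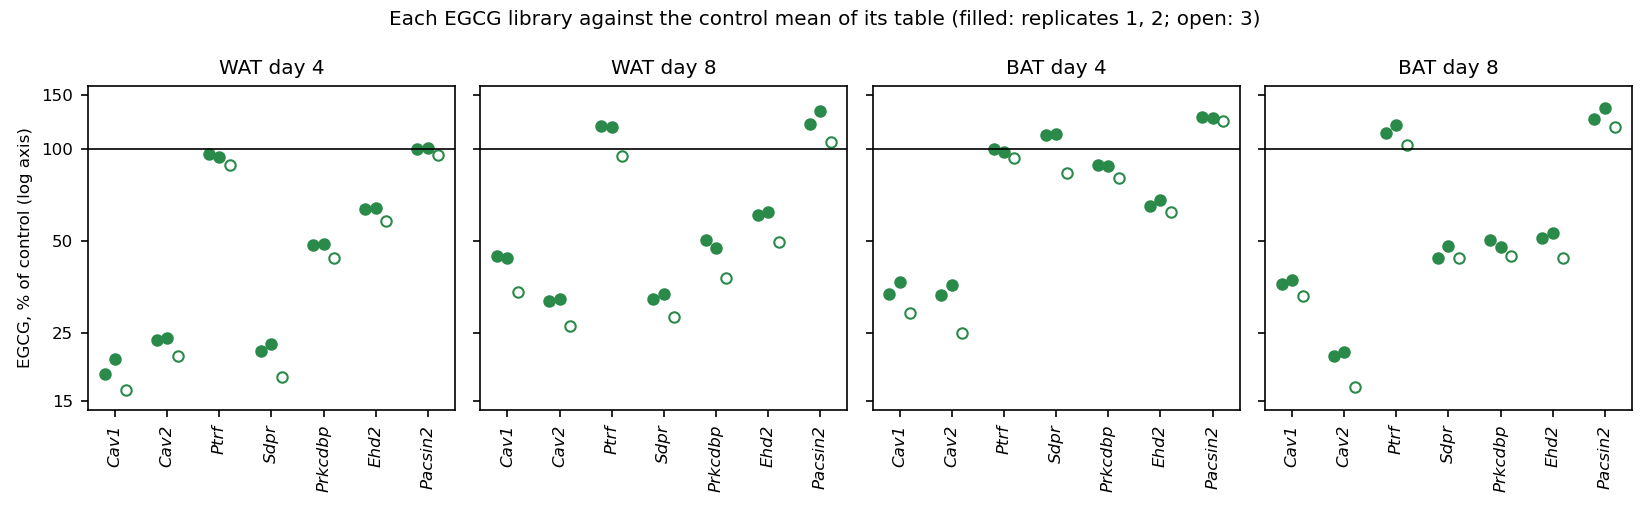
Level of each gene in each EGCG library as a percentage of the control mean of its own table (log axis), with filled points for replicates 1 and 2 and open points for replicate 3 after median-ratio scaling; the line marks 100%. Cav1 and Cav2 lie below the line in all 4 panels, Ptrf and Pacsin2 lie near or above it, and Sdpr is near it only in BAT on day 4.

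Because Cav1 and Ptrf were measured in the same libraries, their ratio does not depend on how a library was scaled. There were 1.35 to 2.17 units of Cav1 FPKM per unit of Ptrf FPKM over all 12 control libraries, and 0.253 to 0.683 over all 12 EGCG libraries. The WAT day 8 EGCG library of replicate 3, at 0.490, was close to the other two (0.553 and 0.550). Cav2 made up 10.1% to 20.9% of the summed caveolin FPKM in controls, with the highest shares in BAT on day 8 (20.0% to 20.9%), and 10.9% to 13.2% with EGCG. Within the cavins, Ptrf held 52.0% to 53.5% of the summed FPKM in WAT day 4 controls and 72.0% to 73.0% with EGCG. In BAT on day 8 it held 39.1% to 40.5% in controls and 60.4% to 61.5% with EGCG. In BAT on day 4 the Ptrf share was 64.6% to 67.5% in controls and 65.6% to 67.6% with EGCG, which overlap. The Sdpr share differed between depots in EGCG cells, at 3.68% to 7.21% in WAT and 15.5% to 18.6% in BAT. It differed in controls too. On day 8 their share was 12.9% to 16.8% in WAT and 24.8% to 28.7% in BAT. On day 4 it was 13.05% to 14.4% in WAT and 15.1% to 17.5% in BAT.

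**Figure D3:**
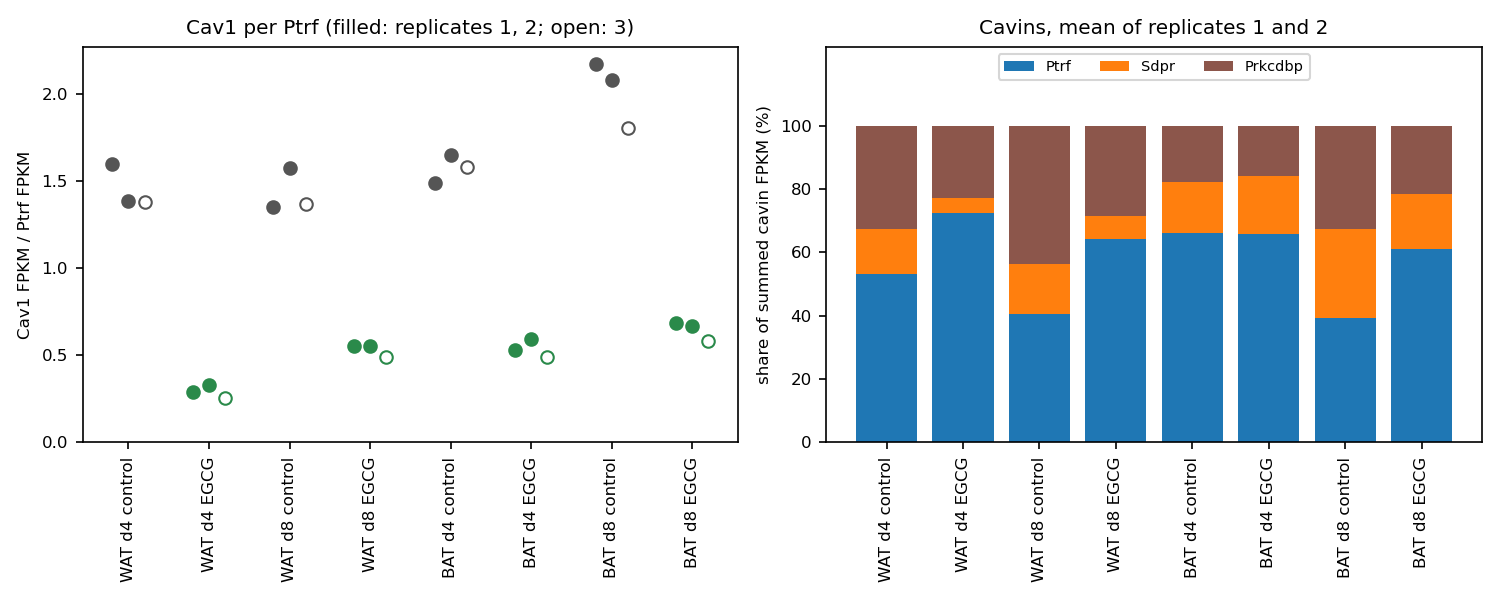
Left, Cav1 FPKM divided by Ptrf FPKM in each library (linear axis from 0; grey, control; green, EGCG; filled, replicates 1 and 2; open, replicate 3). Right, the share of Ptrf, Sdpr and Prkcdbp in the summed cavin FPKM (mean of replicates 1 and 2). All EGCG ratios are at or below 0.683 and all control ratios at or above 1.35. Ptrf holds the largest cavin share in every group except WAT day 8 controls, where Prkcdbp does.

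Cell type markers moved with the same comparisons, and their part in the results was not tested; in these bulk libraries, fewer cells of a type and less RNA per cell cannot be told apart. All 12 adipocyte markers fell with EGCG in each of the 4 comparisons (limma), and their summed level went from 3877 to 4277 FPKM in WAT day 4 controls to 1130 to 1181 with EGCG. In BAT on day 8 it went from 12040 to 12110 FPKM to 512 to 524. Over all tested genes (limma), 34.4% rose and 19.3% fell with EGCG in WAT on day 4, and 44.7% and 18.9% on day 8. In BAT, 27.9% rose and 20.6% fell on day 4, and 46.5% and 26.1% on day 8. The 10 endothelial markers summed to 23.7 to 24.8 FPKM in WAT day 4 controls and 56.0 to 57.3 with EGCG, and to 25.3 to 26.8 and 40.4 to 41.7 in BAT on day 8. In WAT on day 8 the sums were closer, at 34.0 to 37.6 and 38.6 to 39.5 FPKM. In BAT on day 4 they were 16.1 to 18.9 and 51.5 to 55.8. Of the 9 endothelial markers tested, 8 rose and 0 fell with EGCG on day 4 in both depots. On day 8, 4 rose and 2 fell in WAT, and 6 rose and 2 fell in BAT. The 8 mural markers summed to 241 to 264 FPKM in WAT day 4 controls and 174 to 176 with EGCG, and to 171 to 199 and 802 to 964 in BAT on day 4. On day 8 the mural sums were 395 to 528 FPKM in WAT controls and 792 to 805 with EGCG, and 469 to 534 in BAT controls and 1542 to 1708 with EGCG. The single markers were mixed (limma). In WAT, 2 of the 8 mural markers rose and 4 fell with EGCG on day 4, and 3 rose and 2 fell on day 8. Their median log2 change in WAT on day 8 was -0.16, against 0.17 over all genes. In BAT, 6 rose and 0 fell on day 4, and 4 rose and 3 fell on day 8. On day 8 the 4 endothelial rises in WAT and the 4 mural rises in BAT were near the shares of all genes. Of the 5 macrophage markers tested, 3 rose with EGCG and 0 fell on day 4 in both depots, and all 5 fell on day 8 in both. The 6 skeletal muscle markers summed to 2.78 to 24.3 FPKM over the groups.

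Whether the EGCG changes themselves differed between depots and days was tested as a difference of log2 changes in limma. Since the 4 EGCG changes of Cav2 chose the group, its differences are counted below but given as a description, with no p. On day 4, 5 of the 7 genes had a change that was more positive in BAT than in WAT and 0 the reverse, where 12.0% and 16.1% of tested genes were called in these directions (16% and 10.6% after median-ratio scaling). Sdpr differed most, by 2.17 ± 0.12 (SE, adjusted p = 6.64e-07), and Prkcdbp by 0.84 ± 0.08 (adjusted p = 1.63e-05) and Cav1 by 0.82 ± 0.18 (adjusted p = 0.0058) followed. The difference of Pacsin2 (0.32 ± 0.10, adjusted p = 0.031) was closer to the threshold, and that of Cav2 was 0.42 ± 0.11 (0.11 in replicate 3 as deposited). Cav2 was not in the count without WAT day 4 control replicate 1 or without BAT day 4 EGCG replicate 2 (0.37 in both cases), and the Pacsin2 call was lost without any one of 7 of the 8 libraries (0.26 to 0.33), all but BAT day 4 control replicate 2. With no filter the Pacsin2 call was lost too (0.32). The adipocyte list had 8 markers with a more positive change in BAT and 1 with a more negative one (median 0.88), and the mural list had 6 and 2 (median 1.12). The endothelial and macrophage lists had 1 more positive and 0 more negative each. Ptrf (0.05 ± 0.09) and Ehd2 (0.06 ± 0.10) did not pass the test.

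On day 8, 1 gene was more positive in BAT and 1 more negative (19.4% and 19.7% of tested genes). These were Sdpr, at 0.46 ± 0.12 (adjusted p = 0.010), and Cav2, at -0.60 ± 0.11. Cav1 was at -0.29 ± 0.18 and Ehd2 at -0.24 ± 0.10, and neither passed. Without WAT day 8 control replicate 2, both were called (-0.52 and -0.37), and Ehd2 was also called in the fit of all 3 replicates with the table as a block (-0.22). In this contrast 4 adipocyte markers were more positive in BAT and 4 more negative, with 5 and 1 of the endothelial, 4 and 2 of the mural and 2 and 0 of the macrophage markers.

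Between days, the EGCG change in WAT was more positive on day 8 than on day 4 for 5 genes and more negative for 0 (29.7% and 19.7% of tested genes, 23.1% and 24.0% after median-ratio scaling). Cav1 moved most, by 1.17 ± 0.18 (adjusted p = 0.00026), and Sdpr by 0.46 ± 0.12 (adjusted p = 0.0079). Calls were also made for Ptrf (0.32 ± 0.09, adjusted p = 0.012) and Pacsin2 (0.32 ± 0.10, adjusted p = 0.017), and Cav2 was at 0.31 ± 0.11. After median-ratio scaling only Cav1 and Sdpr were called. After quantile normalization and with voom, Pacsin2 was not called (0.20 and 0.24) and Cav2 was not in the count (0.235 and 0.33). Cav2 was also out of the count with no filter (0.31) and with all 3 replicates and the table as a block (0.21). Cav2 was not in the count without any 1 of 6 libraries, WAT day 4 control replicate 1, either WAT day 4 EGCG replicate, WAT day 8 control replicate 1 and either WAT day 8 EGCG replicate (0.25 to 0.33), and the Pacsin2 call without WAT day 8 control replicate 1 (0.23) or WAT day 8 EGCG replicate 2 (0.25). Ehd2 (-0.05 ± 0.10) did not pass, though it was called in the fit of all 3 replicates with the table as a block (-0.17), and not without the WAT day 8 EGCG library of replicate 3. Over the same contrast 11 of the 12 adipocyte markers, 7 of 9 endothelial and 5 of 5 macrophage markers had a more negative change on day 8, and the mural list had 3 more positive and 2 more negative.

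In BAT the EGCG change was more positive on day 8 than on day 4 for 1 gene and more negative for 4 (34.7% and 20.6% of tested genes, 23.2% and 27.2% after median-ratio scaling). Sdpr went from no separation on day 4 to a lower level on day 8, a difference of -1.26 ± 0.12 (adjusted p = 5.09e-06). Prkcdbp differed by -0.84 ± 0.08 (adjusted p = 3.61e-06) and Ehd2 by -0.35 ± 0.10 (adjusted p = 0.012), and Cav2 was at -0.71 ± 0.11. The Ehd2 call was lost without BAT day 4 control replicate 1 (-0.27). The positive gene, Ptrf, was called at 0.23 ± 0.09 (adjusted p = 0.047) while the median of all genes moved by 0.13, and at 0.05 after median-ratio scaling it was not called; without any 1 of 7 of the 8 BAT libraries, all but BAT day 8 EGCG replicate 1, the call was lost as well (0.19 to 0.26). The Ptrf call was also lost with no filter (0.23), with voom (0.05) and with all 3 replicates and the table as a block (0.08). Cav1, at 0.06 ± 0.18, did not pass, and all 12 adipocyte markers, 5 of 9 endothelial, 6 of 8 mural and 4 of 5 macrophage markers had a more negative change on day 8.

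The next question was how the genes changed between day 4 and day 8 without EGCG. In WAT controls 5 genes rose and 0 fell, against 27.7% and 33.2% of tested genes. Prkcdbp rose from 75.8 ± 2.4 to 155 ± 6.8 FPKM (SD, n = 2; log2 change 1.02 ± 0.05, adjusted p = 2.92e-08). Cav2 rose by 0.77 ± 0.08 (adjusted p = 5.51e-06), Sdpr by 0.76 ± 0.08 (adjusted p = 9.97e-06), Ehd2 by 0.52 ± 0.07 (adjusted p = 5.96e-05) and Ptrf by 0.22 ± 0.06 (adjusted p = 0.0087). Without WAT day 8 control replicate 2, Ptrf was no longer called (0.11). Cav1 went from 183 ± 21 to 212 ± 47 FPKM, which did not pass (0.20 ± 0.13, adjusted p = 0.20), though it was called without WAT day 8 control replicate 1 (0.42). Pacsin2 had 17.0 ± 0.2 and 17.9 ± 1.7 FPKM and did not pass. In the fit of all 3 replicates with the table as a block and median-ratio scaling, Cav1 (0.28) and Pacsin2 (0.18) were called, so all 7 genes rose there.

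In BAT controls 6 genes rose and 0 fell, against 28.7% and 40.4% of tested genes (37.5% and 29.3% after median-ratio scaling). Prkcdbp rose most, from 41.6 ± 3.0 to 119 ± 0.2 FPKM (SD, n = 2; log2 change 1.50 ± 0.05, adjusted p = 8.94e-10). Sdpr rose from 38.7 ± 6.2 to 104 ± 3.7 FPKM (1.41 ± 0.08, adjusted p = 3.38e-08) and Cav2 from 34.6 ± 4.8 to 79.5 ± 0.9 FPKM (1.18 ± 0.08, adjusted p = 9.28e-08). Smaller rises were called for Ehd2 (0.42 ± 0.07, adjusted p = 0.00027), Pacsin2 (0.25 ± 0.07, adjusted p = 0.0059) and Cav1 (0.32 ± 0.13, adjusted p = 0.042). The Cav1 call was lost without BAT day 4 control replicate 1, BAT day 8 control replicate 1 or BAT day 8 control replicate 2 (0.22 to 0.33), and the Pacsin2 call without BAT day 4 control replicate 1 (0.20). With no filter the Cav1 call was lost as well (0.32). Ptrf did not pass, at 156 ± 4.4 and 144 ± 2.6 FPKM, and was called lower after quantile normalization (-0.20). The median of all genes moved by -0.10, and relative to it the Prkcdbp rise was 1.60. Over these days 8 of 12 adipocyte markers rose and 1 fell in WAT controls, and 10 rose and 0 fell in BAT controls. Of the 9 endothelial markers tested, 6 rose and 0 fell in both depots, and of the 8 mural markers 5 rose and 1 fell in WAT and 6 rose and 1 fell in BAT. All 5 macrophage markers tested rose in WAT, and 1 rose in BAT. The part of these in the result was not tested.

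With EGCG, all 7 genes rose from day 4 to day 8 in WAT (31.8% of tested genes rose and 27.7% fell). Cav1 rose from 35.8 ± 2.8 to 93.9 ± 0.8 FPKM, a log2 change of 1.37 ± 0.13 (adjusted p = 2.64e-06). Sdpr (1.22 ± 0.08, adjusted p = 2.51e-07), Cav2 (1.09 ± 0.08, adjusted p = 3.93e-07) and Prkcdbp (1.02 ± 0.05, adjusted p = 3.25e-08) more than doubled. Ptrf rose by 0.54 ± 0.06 (adjusted p = 1.72e-05), Ehd2 by 0.47 ± 0.07 (adjusted p = 0.00014) and Pacsin2 by 0.39 ± 0.07 (adjusted p = 0.00041). All 7 calls were kept under every alternative and without any 1 library. In replicate 3, the values as deposited gave 0.049 for Cav1, 0.005 for Sdpr and negative changes for the other 5, and after median-ratio scaling all 7 were positive (0.40 to 1.34). In the same cells 9 of 12 adipocyte markers fell and 1 rose, while 6 of 8 mural markers rose and 2 fell, 2 of 9 endothelial markers rose and 5 fell, and 3 of 5 macrophage markers fell.

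In BAT cells with EGCG, 4 genes rose and 0 fell (29.7% and 28.2% of tested genes). They were Prkcdbp (0.66 ± 0.05, adjusted p = 8.49e-07), Cav2 (0.47 ± 0.08, adjusted p = 0.00031), Pacsin2 (0.30 ± 0.07, adjusted p = 0.0028) and Cav1 (0.38 ± 0.13, adjusted p = 0.023). The Cav1 call was lost without BAT day 4 EGCG replicate 1, BAT day 8 EGCG replicate 1 or BAT day 8 EGCG replicate 2 (0.31 to 0.40). It was also lost with no filter (0.38). Sdpr, which nearly tripled in BAT controls over these days, had 42.9 ± 0.4 and 47.9 ± 3.0 FPKM with EGCG and did not pass (0.15 ± 0.08). Ehd2 (0.07 ± 0.07) and Ptrf (0.11 ± 0.06) did not pass. In the fit of all 3 replicates with the table as a block and median-ratio scaling, Sdpr (0.24) and Ptrf (0.14) were called, for 6 of the 7 genes. Here 10 of 12 adipocyte markers fell and 1 rose, 4 of 8 mural markers rose and 1 fell, 2 of 9 endothelial markers rose and 4 fell, and 4 of 5 macrophage markers fell.

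**Figure D4:**
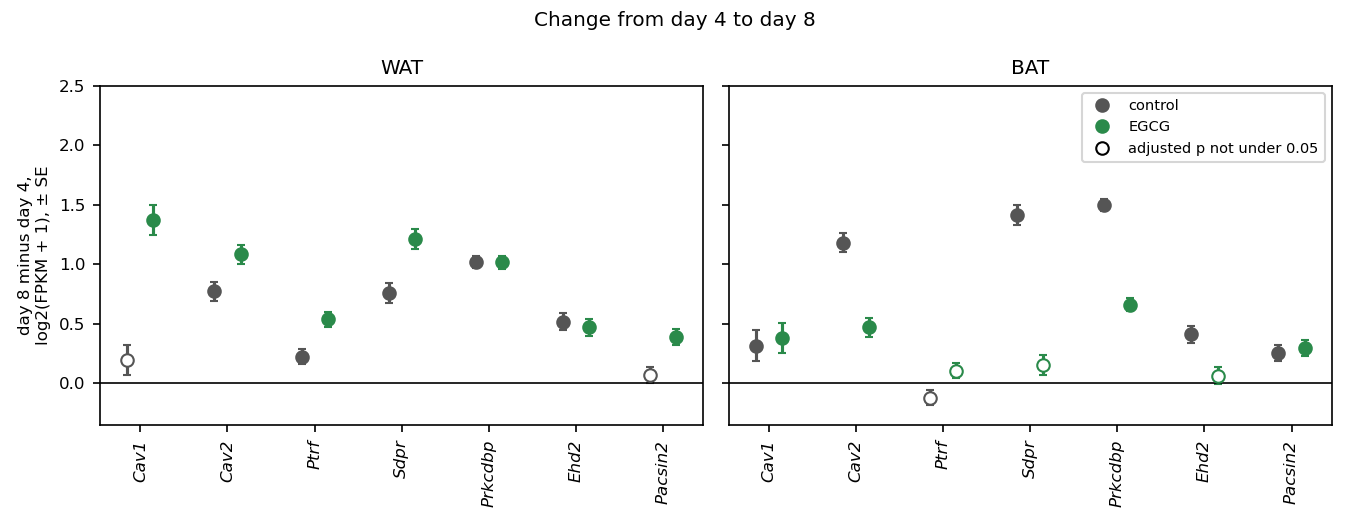
Change from day 4 to day 8 in log2(FPKM + 1) with its SE (limma, replicates 1 and 2) for control (grey) and EGCG cells (green) of each depot; open points did not reach an adjusted p under 0.05. In WAT the Cav1 change is 0.20 in controls and 1.37 with EGCG, and in BAT the Sdpr change is 1.41 in controls and 0.15 with EGCG (called at 0.24 with all 3 replicates and the table as a block).

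Between depots, 5 genes were higher in BAT than in WAT controls on day 4 and 1 was lower (41.4% and 14.4% of tested genes, 24.4% and 23.5% after median-ratio scaling), while the median of all genes was 0.15 higher in BAT. Cav2 was higher by 0.64 ± 0.08 (adjusted p = 4.68e-05), Ehd2 by 0.48 ± 0.07 (adjusted p = 0.00017) and Ptrf by 0.34 ± 0.06 (adjusted p = 0.00076). The calls of Cav1 (0.42 ± 0.13, adjusted p = 0.015) and Sdpr (0.21 ± 0.08, adjusted p = 0.048) were lost after median-ratio scaling (0.25 and 0.05). Both were also lost after quantile normalization (0.26 and 0.12) and with voom (0.25 and 0.05). The Sdpr call was lost as well with no filter (0.21) and with all 3 replicates and the table as a block (0.09). The Cav1 call was also lost without WAT day 4 control replicate 2 or BAT day 4 control replicate 2 (0.30 and 0.32), and the Sdpr call without these (0.17 and 0.05) or WAT day 4 control replicate 1 (0.26). The lower gene was Prkcdbp, with 41.6 ± 3.0 FPKM in BAT and 75.8 ± 2.4 in WAT (-0.85 ± 0.05, adjusted p = 3.64e-07).

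On day 8, again 5 genes were higher in BAT controls and 1, Prkcdbp, was lower (31.6% and 22.0% of tested genes). Cav2 was at 79.5 ± 0.9 FPKM in BAT and 37.9 ± 2.5 in WAT (1.05 ± 0.08, adjusted p = 6.68e-07). Sdpr was higher by 0.87 ± 0.08 (adjusted p = 5.20e-06), Cav1 by 0.54 ± 0.13 (adjusted p = 0.0036) and Ehd2 by 0.38 ± 0.07 (adjusted p = 0.00087). The Pacsin2 call (0.23 ± 0.07, adjusted p = 0.015) was lost without WAT day 8 control replicate 1 (0.14) or BAT day 8 control replicate 2 (0.19). It was also lost after quantile normalization (0.16). Prkcdbp was lower (-0.37 ± 0.05, adjusted p = 0.00012), and Ptrf, at 144 ± 2.6 and 144 ± 17 FPKM, did not pass, though it was called lower in BAT after quantile normalization (-0.14). In both depot comparisons 10 of 12 adipocyte markers were higher in BAT. Of the mural markers 2 were higher and 5 lower in BAT on day 4, and 4 higher and 1 lower on day 8, while 4 and 6 of the 9 endothelial markers were lower on days 4 and 8.

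Ranked over all 8 groups, Cav1 and Cav2 had their 4 control groups above their 4 EGCG groups, and so did Ehd2. The BAT day 8 controls were highest for Cav1 (306 ± 4.2 FPKM), Cav2, Sdpr and Ehd2, and their libraries lay above those of the next group in each case. WAT day 8 and BAT day 4 controls overlapped for Cav1, Cav2 and Ehd2, and WAT day 8 and BAT day 4 EGCG cells overlapped for Cav2. Prkcdbp was highest in WAT day 8 controls. Ptrf and Pacsin2 had their highest means in the day 8 EGCG groups, though the median of all genes was also raised there.

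Over the 16 libraries of replicates 1 and 2, Cav2 varied most closely with Ehd2 (Pearson r of log2(FPKM + 1) = 0.985) and with Cav1 (0.959) among the 7 genes. Ptrf had r = 0.254 with Cav1 and 0.743 with Pacsin2, and Pacsin2 had -0.06 with Cav1. The libraries fall into the 8 groups and share their scaling, so these values describe the pattern and carry no p. Among 8704 genes with a mean of at least 5 FPKM, those most like Cav2 were Ehd2 and Rcbtb2 (0.980), and most like Ehd2 were Cav2 and Dbi (0.975), the acyl-CoA-binding protein. The nearest to Cav1 were Ifi27l1 (0.963) and Pla2g16 (0.960), a phospholipase of adipocytes. Sdpr was nearest to Fhl1 (0.962) and Sspn (0.942), Prkcdbp to Parp9 (0.966) and Uba7 (0.963), Ptrf to Hdgf (0.942) and Cdk5 (0.932), and Pacsin2 to Myl6 and Sh3bgrl (0.964 each).

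A list of 22 genes linked to caveolae held paralogs, neck proteins, flotillins, partners, kinases and proteins described in caveolae. Of these, 20 were tested (Nos3 and Pacsin1 were too low). With EGCG, 8 rose and 5 fell in WAT on day 4 (34.4% and 19.3% of tested genes, 25.4% and 27.5% after median-ratio scaling), and the median log2 change was 0.12 against 0.09 over all genes. In WAT on day 8, 12 rose and 5 fell (44.7% and 18.9%, 28.3% and 28.4% after median-ratio scaling), with a median of 0.33 against 0.17. In BAT, 9 rose and 5 fell on day 4 (27.9% and 20.6%, median 0.11 against 0.03), and 10 rose and 4 fell on day 8 (46.5% and 26.1%, 35.3% and 34.5% after median-ratio scaling), with a median of 0.21 against 0.17. After median-ratio scaling the list's counts were 7 and 6 in WAT on day 4, 9 and 5 in WAT on day 8, 9 and 5 in BAT on day 4, and 7 and 6 in BAT on day 8.

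Among the cargo and receptor proteins of this list, Cd36, the fatty acid transporter, fell from 145 to 5.34 FPKM in WAT on day 8 (log2 change -4.52 ± 0.09, adjusted p = 8.44e-12) and from 95.1 to 38.8 in BAT on day 4 (-1.27 ± 0.09, adjusted p = 4.82e-07). Slc2a4, the insulin-responsive glucose transporter, fell from 126 to 1.58 FPKM in BAT on day 8 (-5.62 ± 0.17, adjusted p = 9.88e-11). Both fell in all 4 comparisons. Insr, the insulin receptor, fell in 3, and in WAT on day 4 it had 12.9 FPKM in controls and 13.1 with EGCG.

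Among the membrane-shaping relatives of Ehd2 and Pacsin2, Ehd4 rose in all 4 comparisons, though in WAT on day 8 it was not called after median-ratio scaling (0.11), and went from 4.28 to 8.01 FPKM in BAT on day 4 (0.77 ± 0.09, adjusted p = 1.52e-05), and Ehd3 rose in 3, from 1.85 to 7.76 FPKM in BAT on day 4 (1.62 ± 0.11, adjusted p = 2.54e-07). Ehd1 fell on day 4 in both depots and was called higher on day 8, but not after median-ratio scaling (-0.011 in WAT and 0.094 in BAT). Pacsin3 rose in 3 comparisons, from 5.98 to 12.2 FPKM in WAT on day 4 (0.92 ± 0.08, adjusted p = 2.60e-06). In BAT on day 8 Pacsin3 was not called (-0.05), but it was called lower after median-ratio scaling (-0.25). Among the signalling genes, Fyn (a Src-family kinase) and Abl1 (a tyrosine kinase) rose in all 4 comparisons, and so did the scaffold gene Flot1 (flotillin 1) except in BAT on day 8 after median-ratio scaling (0.037). Flna, the actin cross-linker that binds caveolin 1, rose in 3, from 119 to 298 FPKM in BAT on day 8 (1.32 ± 0.07, adjusted p = 6.68e-09). In WAT on day 4 Flna was not called (-0.11), but it was called lower after median-ratio scaling (-0.22). Plvap, a diaphragm protein of endothelial caveolae that is also on the endothelial list, rose on day 4 and fell on day 8 in both depots. Cav3, the muscle caveolin, stayed at 1.22 FPKM or less in every group mean, and Murc, the muscle cavin, at 1.84 or less.

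**Figure D5:**
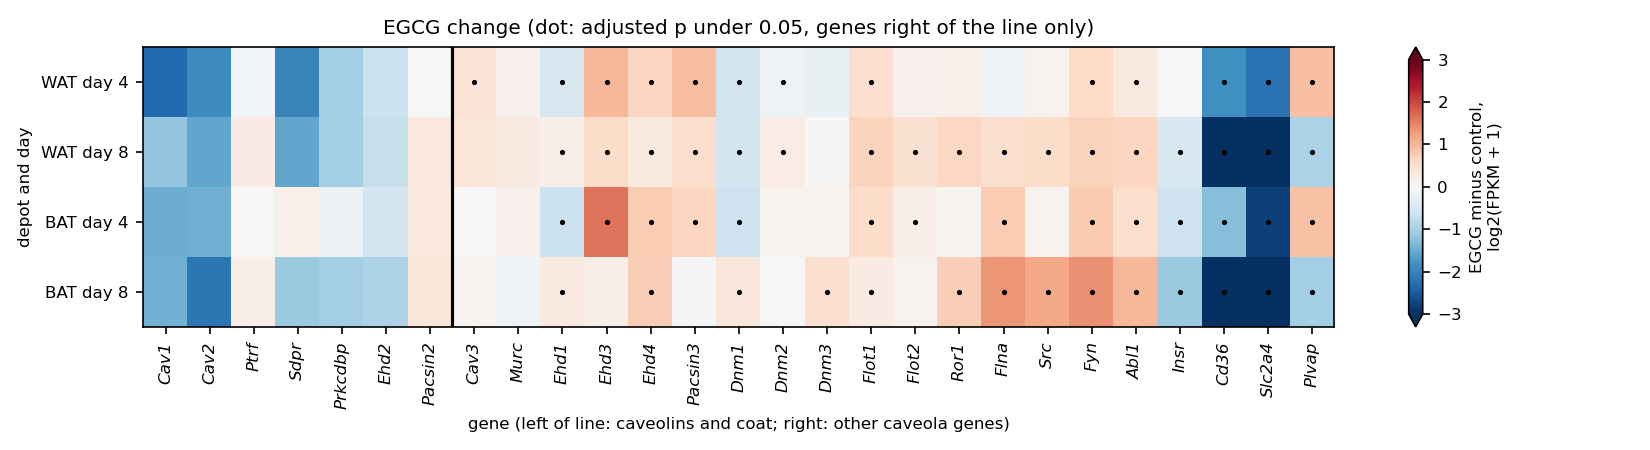
Log2 change with EGCG of the 7 caveola genes left of the line and of 20 genes linked to caveolae right of it. Colour gives EGCG minus control in log2(FPKM + 1), replicates 1 and 2, and changes beyond 3 take the end colours. Dots mark an adjusted p under 0.05 (limma) and are drawn right of the line only. Cd36 and Slc2a4 are lower in all 4 rows and Fyn and Abl1 higher.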

How the data were processed

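RNA was sequenced in 24 libraries (8 groups, 3 libraries each). The submitters' processing notes name FastQC 0.11.9, HISAT2 2.2.0, HTSeq 0.11 and mm9. The authors deposited FPKM values in 2 tables that were scaled separately, with replicates 1 and 2 in the first and replicate 3 in the second. How strand was treated is not given in the sources used here. All 37310 gene identifiers matched GENCODE vM1, and every gene length equalled its longest transcript. All values above 0 were whole numbers of reads (tolerance 0.01).

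Groups came from the labels, and all 24 columns matched 1 sample each. Genes with at least 1 FPKM in at least 2 of the 16 libraries of replicates 1 and 2 were tested (14095). Log2(FPKM + 1), which understates changes of low genes, was modelled by group in limma 3.58.1 (R 4.3.3; eBayes with trend, 8 residual and 3.37 prior degrees of freedom), with Benjamini-Hochberg adjustment over all genes tested within each contrast and a threshold of 0.05. The same script was tested on simulated data. Replicate 3 was given beside levels and EGCG changes of most members, and entered only the tests that use all 3 replicates. Replicates differed by more than sampling noise in each group (median squared standardized difference 1.63 to 4.18, against 0.455).

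The genes and lists (caveola associated, adipocyte, endothelial, mural, macrophage, skeletal muscle, brown and white identity) were chosen with earlier results of these data known. Named genes are the 7, for each the 2 genes with the highest Pearson r, and members of the lists. Gm5417 and Gm15581 were named after their values were seen, since they overlap 3 of the 7. Alternatives were another pseudocount (0.1), no filter, a mean of at least 5 FPKM, median-ratio scaling, quantile normalization, the replicate number as a block, each library left out, all 3 replicates with the table as a block, and voom on recovered reads. The 6 brown identity markers summed to 52.8 to 55.2 FPKM in BAT and 17.9 to 19.3 in WAT day 8 controls, and the 4 white identity markers to 3.39 to 3.89 and 24.9 to 25.0.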

Additional observations from a re-analysis of the deposited data

Results flagged for a closer look

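Differences of the EGCG change (log2 scale) between depots or days were fitted in limma, and 17 were flagged. Those of Cav2 are among the 17 but do not count as passed tests. Between depots on day 4 (BAT minus WAT), these were Sdpr (2.17), Prkcdbp (0.84), Cav1 (0.82), Cav2 (0.42) and Pacsin2 (0.32). Between depots on day 8 they were Cav2 (-0.60) and Sdpr (0.46). Between days in WAT (day 8 minus day 4) they were Cav1 (1.17), Sdpr (0.46), Pacsin2 (0.32), Ptrf (0.32) and Cav2 (0.31). Between days in BAT they were Sdpr (-1.26), Prkcdbp (-0.84), Cav2 (-0.71), Ehd2 (-0.35) and Ptrf (0.23). The Cav2 values are a description, since its EGCG changes chose the genes.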

How the results depend on the processing

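Of the 174 counts of genes recomputed under the alternatives, 165 stayed within 1.5 times the main count. A count can stay within that limit while a call is lost. For the log2 changes of single genes under the alternatives, 68 calls were lost, 16 were gained and 3 changes turned sign. Another 112 log2 changes were classed as moved and 1187 as the same. For the day difference of the EGCG change in WAT, 5 genes were called, and 2 after median-ratio scaling, 3 after quantile normalization, 3 with voom and 3 to 5 with 1 library left out. With 1 library left out, the counts were 3 to 5 for the depot difference on day 4 (5 called), 2 to 4 for the depot difference on day 8 (2 called), and 3 to 5 for the day difference in BAT (5 called). The cause was not tested. Each of these main counts for a difference of the EGCG change includes Cav2, as a description. The EGCG change of Ptrf turned from 0.24 to -0.0062 in WAT on day 8 with all 3 replicates and median-ratio scaling, and from 0.21 to -0.0027 after median-ratio scaling and -0.0028 with voom in BAT on day 8.

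The replicate numbers carry no stated meaning, and the differences between replicates 1 and 2 of any 2 groups correlated by -0.079 to 0.081. Such low correlations cannot show whether libraries with the same number shared a culture or animal. The main fit used no pairing. With the replicate block the counts of called genes were those without it (7 for the change from day 4 to day 8 in EGCG cells of WAT, for example), and it changed no other call. Each of the 7 genes held at least 619 reads in every tested library, and 2 libraries a group and FPKM scaling limit changes near the shift of all genes, such as those of Ptrf and Pacsin2.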
